A study of Mus musculus with 18 samples.

Results

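The 8 genes described here carry the MHC class II route of antigen presentation: H2-Aa, H2-Ab1 and H2-Eb1 for the chains, Cd74 for the invariant chain, H2-DMa and H2-DMb1 for the peptide editor, Ctss for cathepsin S and Ciita for the transactivator. They were chosen by name, with earlier results of these data known, and all 8 were found among the 16245 genes of the deposited liver count table. Livers came from 18 wild-type male C57BL/6 mice that were placed on a NASH diet (high in fat and fructose) and housed at about 29 °C from 8 weeks of age. They were housed singly, and 6 received vehicle, 6 received recombinant GDF15 by daily subcutaneous injection, and 6 were pair-fed, which means that they were given the amount of food that GDF15-treated mice had eaten on the previous day. The labels name a protocol with daily doses of 0.3 nmol, 1 nmol or 5 nmol for each kg of body weight, or more than one of these, and do not state what each mouse received. All groups share the diet and the warm housing, so no liver from mice on a standard diet or at a cooler temperature is part of the comparison.

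MHC class II molecules are dimers of an alpha and a beta chain that carry peptides from endocytosed proteins to the cell surface, where CD4+ T cells read them. Newly made dimers are held by the invariant chain, which cathepsins cut down to a short stub, and H2-DM then swaps that stub for a peptide. In liver these genes are expressed mainly by dendritic cells, macrophages including Kupffer cells, and B cells, and less by sinusoidal endothelium, whereas resting hepatocytes express very little of them. Transcription of the chains, Cd74 and the H2-DM genes is switched on by CIITA, a coactivator that binds no DNA itself and docks on the RFX, CREB and NF-Y factors at the promoters. C57BL/6 mice carry a defective gene for the I-E alpha chain, so the product of H2-Eb1 does not reach the surface as an I-E dimer although its RNA is made.

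The promoters of 3 of the genes are shown because the same pair of short letter strings stands near the start of each of them. RefSeq windows (build GRCm38.p6, the same assembly as mm10) covering 250 bases upstream of the transcription start were found for 5 of the 8 genes, in 6 windows, and 3 of the genes held GNAACT followed by GATTGG at a distance of 15 to 40 bases. The capitals mark these 2 strings, and each sequence is written 5′ to 3′ on the strand of its gene with 25 bases on either side.
H2-DMb1, chr17:34153072-34153159, plus strand: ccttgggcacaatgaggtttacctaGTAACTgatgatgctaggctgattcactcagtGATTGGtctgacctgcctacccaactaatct
H2-Aa, chr17:34287842-34287929, minus strand: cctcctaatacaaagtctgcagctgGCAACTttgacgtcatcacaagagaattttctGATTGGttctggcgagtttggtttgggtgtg
H2-Eb1, chr17:34305751-34305837, plus strand: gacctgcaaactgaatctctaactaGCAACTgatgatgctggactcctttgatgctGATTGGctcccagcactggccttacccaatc
The gap between the strings was 26, 26 and 25 bases, and GATTGG began 62, 49 and 60 bases before the transcription start of H2-DMb1, H2-Aa and H2-Eb1. GATTGG holds the CCAAT core of an NF-Y site on its other strand, and GNAACT resembles the start of the X box that RFX binds. The letters were chosen after these promoters had been read, so the matches are a description. Over 32851 windows of the same length, both strands searched, the pair was present in 114 (0.347%) and GATTGG alone in 4783 (14.6%). Among all other genes listed in this report, the pair was found in H2-Eb2. The windows of H2-DMa and Ctss did not hold the pair, and those of H2-Ab1, Cd74 and Ciita were not examined here.

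Total counts ran from 16508864 to 35301853 per library, and the 8 genes together took 0.0264 to 0.0573% of the counts in vehicle livers, 0.0100 to 0.0254% in GDF15-treated livers and 0.0281 to 0.0507% in pair-fed livers. A level of 3 counts, taken as the limit of detection, corresponded to 0.0850 to 0.182 CPM, and it covers counting error only, because the libraries had no molecular identifiers and 1 molecule can give several reads. The albumin transcript alone took 6.24 ± 0.352% of the counts in the vehicle group, 7.41 ± 0.341% in the GDF15 group and 6.23 ± 1.06% in the pair-fed group (SD, n = 6 each). The RNA is from whole liver, and in such samples fewer cells of a type and less RNA per cell cannot be told apart.

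All 8 class II genes had a lower mean in GDF15-treated livers than in both other groups. Levels are given as normalized counts, which are counts divided by a size factor computed over all genes of each library. A gene was called when its adjusted p in DESeq2 was under 0.05 and its level differed by more than 2-fold (a log2 fold change beyond 1). Against vehicle, 6 of the 8 genes were called lower, where 5.37% of 14667 genes tested were called lower. At the adjusted p alone, 8 of 8 were lower against a background of 17.5%. Against pair-feeding, 2 of 8 were called lower, H2-Aa and Ciita, with a background of 2.75% of 14353 genes. At the adjusted p alone, 8 of 8 were lower there against a background of 13.8%. The median log2 fold change of the 8 genes was -1.05 against vehicle and -0.93 against pair-feeding, and the median over all genes was -0.00 and -0.01. Both comparisons use the same 6 GDF15-treated livers. Since the set was chosen with earlier results known, its counts beside the background describe the set and are not an independent test.

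**Figure D1:**
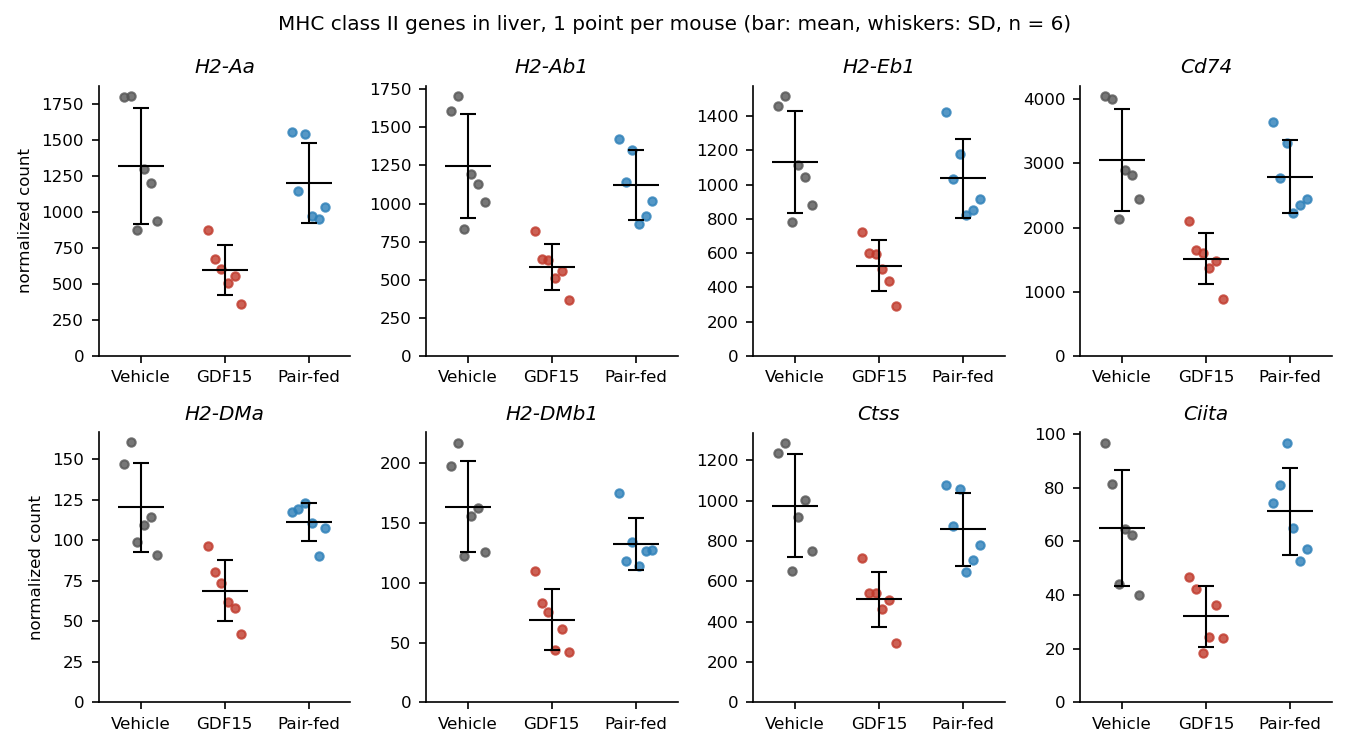
Normalized counts (vertical axes, from 0) of the 8 class II genes in each mouse by group, with the replicate number rising from left to right within a group; bars are means and whiskers SD (n = 6). The GDF15-treated livers lie below all others for H2-Aa, H2-Ab1, H2-Eb1, Cd74 and H2-DMb1, and overlap another group for H2-DMa, Ctss and Ciita.

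The chains of the dimer did not overlap between the GDF15-treated livers and the others. H2-Aa (chr17:34282744-34287823), the I-A alpha chain, stood at 1798, 1801, 876, 1299, 1204 and 935 normalized counts in the 6 vehicle livers. It stood at 874, 670, 603, 505, 555 and 358 in the 6 GDF15-treated livers. It stood at 1557, 1146, 1541, 969, 953 and 1036 in the 6 pair-fed livers. The highest GDF15-treated liver was just under the lowest vehicle liver, so the groups did not overlap. The means were 1319 ± 405, 594 ± 173 and 1200 ± 279 (SD, n = 6). The log2 fold change was -1.15 (SE 0.21, adjusted p = 9.36e-07) against vehicle and -1.01 (SE 0.21, adjusted p = 2.76e-05) against pair-feeding.

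H2-Ab1 (chr17:34263227-34269418), the I-A beta chain that pairs with H2-Aa, ran from 831 to 1704 in the vehicle group, from 366 to 823 in the GDF15 group and from 865 to 1424 in the pair-fed group, again without overlap. Its log2 fold change was -1.09 (SE 0.19, adjusted p = 2.88e-07) against vehicle and -0.93 (SE 0.19, adjusted p = 2e-05) against pair-feeding. H2-Eb1 (chr17:34305867-34316674), the I-E beta chain, ran from 784 to 1515, from 294 to 725 and from 823 to 1425 in the same order. Its log2 fold change was -1.11 (SE 0.20, adjusted p = 6.82e-07) and -0.98 (SE 0.20, adjusted p = 1.94e-05). The fold change of the I-E beta chain lay within 1 SE of those of the I-A chains. The count of H2-Ab1 per count of H2-Aa was 0.954 ± 0.0644 in the vehicle group, 0.994 ± 0.0416 in the GDF15 group and 0.938 ± 0.0501 in the pair-fed group (SD, n = 6), and these ranges overlapped.

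Cd74, the invariant chain that escorts new dimers, was the most abundant of the set. The vehicle livers held 4048, 4001, 2135, 2900, 2814 and 2439 normalized counts of Cd74. The GDF15-treated livers held 2103, 1646, 1602, 1377, 1478 and 891. The pair-fed livers held 3644, 2778, 3311, 2222, 2357 and 2449. Vehicle mouse 3 and GDF15 mouse 1 were nearly level, and no GDF15-treated liver was above any liver of the other groups. The log2 fold change was -1.01 (SE 0.19, adjusted p = 1.45e-06) against vehicle, just past the 2-fold line, and -0.88 (SE 0.19, adjusted p = 4.81e-05) against pair-feeding.

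The 2 chains of the peptide editor H2-DM were both lower with GDF15, by different amounts. H2-DMb1 (chr17:34153191-34160229), its beta chain, had the lowest fold change of the set against vehicle. It stood at 198, 217, 122, 155, 162 and 125 normalized counts in the vehicle group, at 110, 82.6, 75.7, 43.7, 61.1 and 42.2 in the GDF15 group, and at 175, 118, 134, 114, 127 and 127 in the pair-fed group. The highest GDF15-treated liver was just under the lowest pair-fed liver. The log2 fold change was -1.22 (SE 0.21, adjusted p = 9.39e-08) against vehicle and -0.92 (SE 0.21, adjusted p = 0.00013) against pair-feeding. H2-DMa (chr17:34119693-34139101), the alpha chain, ran from 91.0 to 160 in the vehicle group, from 42.2 to 96.2 in the GDF15 group and from 90.4 to 122.7 in the pair-fed group. One GDF15-treated liver lay within the range of the other groups and 5 of 6 lay below it. Its log2 fold change was -0.79 (SE 0.18, adjusted p = 6.9e-05) and -0.68 (SE 0.17, adjusted p = 0.00109), under 2-fold in both. The count of H2-DMb1 per count of H2-DMa was 1.36 in the vehicle group, 0.992 in the GDF15 group and 1.20 in the pair-fed group, a difference that was not tested. H2-DMb1 has a near-identical neighbour, H2-DMb2, and the annotated span of H2-DMa overlaps that of Brd2, so the split of reads between these genes is uncertain.

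Cathepsin S, the protease that makes the last cut in the invariant chain of dendritic cells and B cells, followed the same order without reaching 2-fold. Ctss (chr3:95526786-95556405) ran from 652 to 1288 in the vehicle group, from 297 to 716 in the GDF15 group and from 644 to 1078 in the pair-fed group. GDF15 mouse 1 lay inside the range of both other groups and the other 5 lay below it. The log2 fold change was -0.93 (SE 0.19, adjusted p = 2.08e-05) against vehicle and -0.75 (SE 0.19, adjusted p = 0.0011) against pair-feeding. Per count of H2-Aa, Ctss stood at 0.748 ± 0.0570 in the vehicle group, 0.864 ± 0.0501 in the GDF15 group and 0.718 ± 0.0413 in the pair-fed group, a difference that was not tested.

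Ciita (chr16:10480014-10531064), the transactivator of the chains, Cd74 and the H2-DM genes, was the least abundant. It stood at 96.6, 81.3, 44.2, 64.5, 62.5 and 39.96 normalized counts in the vehicle livers. It stood at 46.8, 42.3, 18.4, 24.4, 36.4 and 24.1 in the GDF15-treated livers. It stood at 74.3, 81.1, 96.5, 65.1, 52.7 and 57.0 in the pair-fed livers. All 6 GDF15-treated livers were below every pair-fed liver, and 4 of 6 were below every vehicle liver. The log2 fold change was -1.01 (SE 0.25, adjusted p = 0.000525) against vehicle and -1.13 (SE 0.25, adjusted p = 0.000108) against pair-feeding. It was the only one of the 8 whose mean was higher in the pair-fed group (71.1 ± 16.3) than in the vehicle group (64.8 ± 21.6, SD, n = 6), a difference within the spread.

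Counted over the set, all 6 GDF15-treated livers lay below all 12 others for 5 of the 8 genes, where 4.13% of 13207 genes did so. Without single libraries, the fold changes moved around the 2-fold line while 8 of 8 genes kept an adjusted p under 0.05 in DESeq2 in both comparisons. The share of all genes called without each library is not reported here. Against vehicle, 2 genes were called without GDF15 mouse 6 (Cd74, Ciita, H2-Ab1 and H2-Eb1 were lost), 3 without vehicle mouse 2 (Cd74, Ciita and H2-Ab1 were lost), 4 without vehicle mouse 1 or GDF15 mouse 4 (Cd74 and Ciita were lost) and 5 without GDF15 mouse 3 (Ciita was lost), while Ctss was gained without vehicle mouse 3 or GDF15 mouse 1. Against pair-feeding, 5 were called without GDF15 mouse 1 (H2-Ab1, H2-DMb1 and H2-Eb1 were gained), 3 without any of GDF15 mice 2 and 3 and pair-fed mice 4, 5 and 6 (H2-Eb1 was gained), and 1 without any of GDF15 mice 4, 5 and 6 and pair-fed mice 1 and 3 (H2-Aa was lost).

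No difference between pair-fed and vehicle livers was detected in the set. Against vehicle, 0 of 8 genes were called in DESeq2 or in edgeR, 0 had an unadjusted p under 0.05, and the log2 fold changes ran from -0.31 to 0.12 (adjusted p = 0.998 for each). Across all genes tested, 0 of 16242 (0%) were called by DESeq2 and 0 of 12992 by edgeR, with 718 at an unadjusted p under 0.05. The 95% interval of the difference was -0.55 to 0.27 for H2-Aa, -0.50 to 0.24 for Cd74, -0.69 to 0.08 for H2-DMb1 and -0.35 to 0.58 for Ciita, so differences of less than about these sizes could not be told from none. The order of the levels was thus vehicle, pair-fed, GDF15 for 7 genes and pair-fed, vehicle, GDF15 for Ciita, and vehicle and pair-fed livers did not differ beyond their spread for any of the 8.

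**Figure D2:**
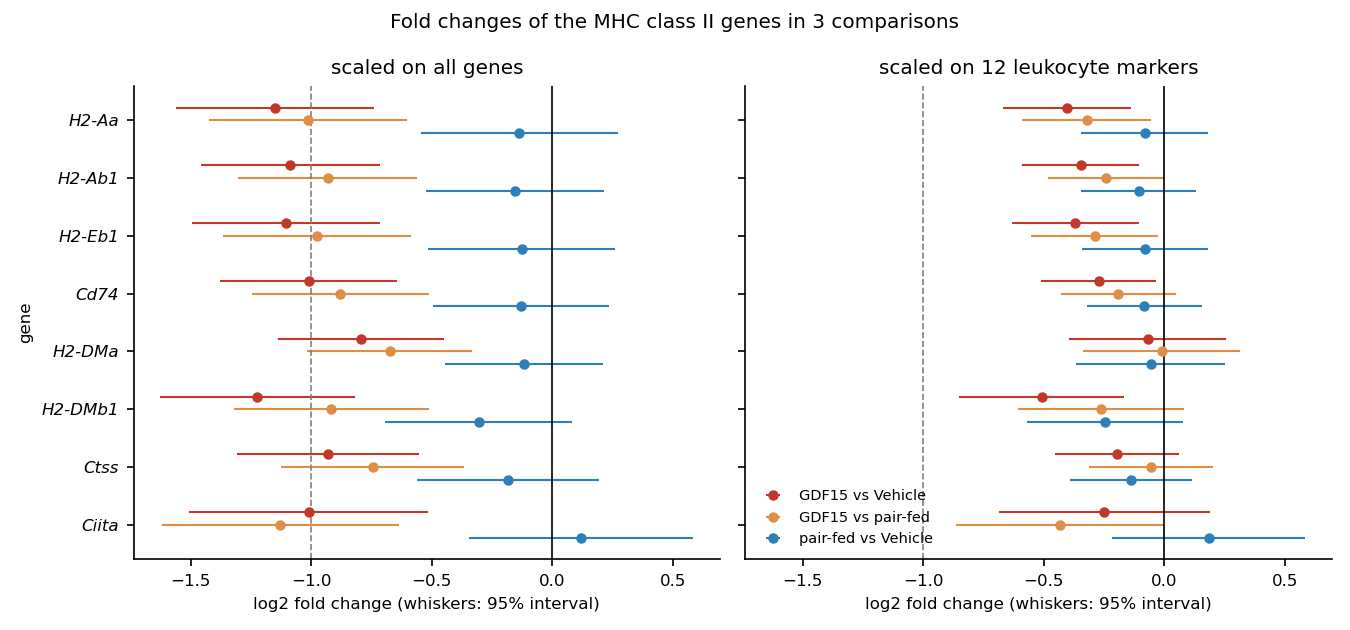
Log2 fold changes (horizontal axis) of the 8 class II genes in 3 comparisons, as point and 95% interval, with size factors from all genes (left) and from 12 pan-leukocyte markers (right); the dashed line is a 2-fold decrease. On the left the GDF15 comparisons lie between -1.22 and -0.68, and on the right between -0.51 and -0.01.

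On a scale that also divides by transcript length (GENCODE vM21 lengths, scaled to the same total in each library), the genes could be ranked against each other. In vehicle livers the level was 210.8 ± 66.0 for Cd74, 125 ± 44.8 for H2-Aa, 110 ± 35.7 for H2-Ab1, 66.7 ± 20.7 for Ctss and 62.9 ± 19.7 for H2-Eb1 (SD, n = 6). The editor chains were lower, at 10.8 ± 3.02 for H2-DMb1 and 6.71 ± 1.87 for H2-DMa, and Ciita stood at 1.42 ± 0.548. The means of H2-Aa and H2-Ab1, and those of Ctss and H2-Eb1, lay within 1 SD of each other, and other neighbours in this order lay further apart. The invariant chain and the I-A chains stood highest, and the transactivator lowest.

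The genes of the set moved together from mouse to mouse. After each group's mean was taken out on the log2 scale, the Pearson r of the 28 pairs ran from 0.636 to 0.991 over the 18 livers, with a median of 0.892. The 6 pairs among H2-Aa, H2-Ab1, H2-Eb1 and Cd74 ran from 0.962 to 0.991, and the lowest pair was H2-DMb1 with Ciita. These correlations are a description, since all values of a mouse come from 1 library and share its size factor. Of 10875 other genes with a mean of at least 50 normalized counts, the 10 most like the chains and Cd74 were Cyba (mean r = 0.956), Laptm5 (0.946), C1qb (0.943), Ncf1 (0.936), Nckap1l (0.933), Clec12a (0.927), Itgax (0.924), C1qa (0.924), Niban1 (0.922) and Tifab (0.915). Cyba and Ncf1 encode parts of the phagocyte NADPH oxidase, C1qa and C1qb encode chains of complement C1q made by macrophages, and Itgax is the integrin CD11c. Laptm5 is also in the pan-leukocyte list used below, and Itgax in the dendritic cell list.

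Of the set, 5 genes lie in the class II region of chromosome 17, within 197 kb (chr17:34119693-34316674). The table held 12 genes there, and 0 of the 7 that are not in the set were called in DESeq2 or edgeR against either group (1 had an unadjusted p under 0.05 against vehicle and 4 against pair-feeding). Tap1 and Psmb8, which serve MHC class I and lie between H2-DMb1 and H2-Ab1, had log2 fold changes of -0.10 (adjusted p = 0.373) and 0.12 (adjusted p = 0.346) against vehicle. The 7 also included Brd2, Psmb9, Tap2, H2-DMb2 and H2-Ob. The lowest fold changes of the 7 against vehicle were those of other class II genes, with H2-Ob at -0.62 (adjusted p = 0.0819) and H2-DMb2 at -0.53 (adjusted p = 0.192), which did not pass the test. Against pair-feeding, 3 of the 7 passed the adjusted p alone: H2-DMb2 (-0.87, adjusted p = 0.0231), H2-Ob (-0.79, adjusted p = 0.0229) and Psmb9, a proteasome subunit that serves class I (-0.30, adjusted p = 0.0477).

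**Figure D3:**
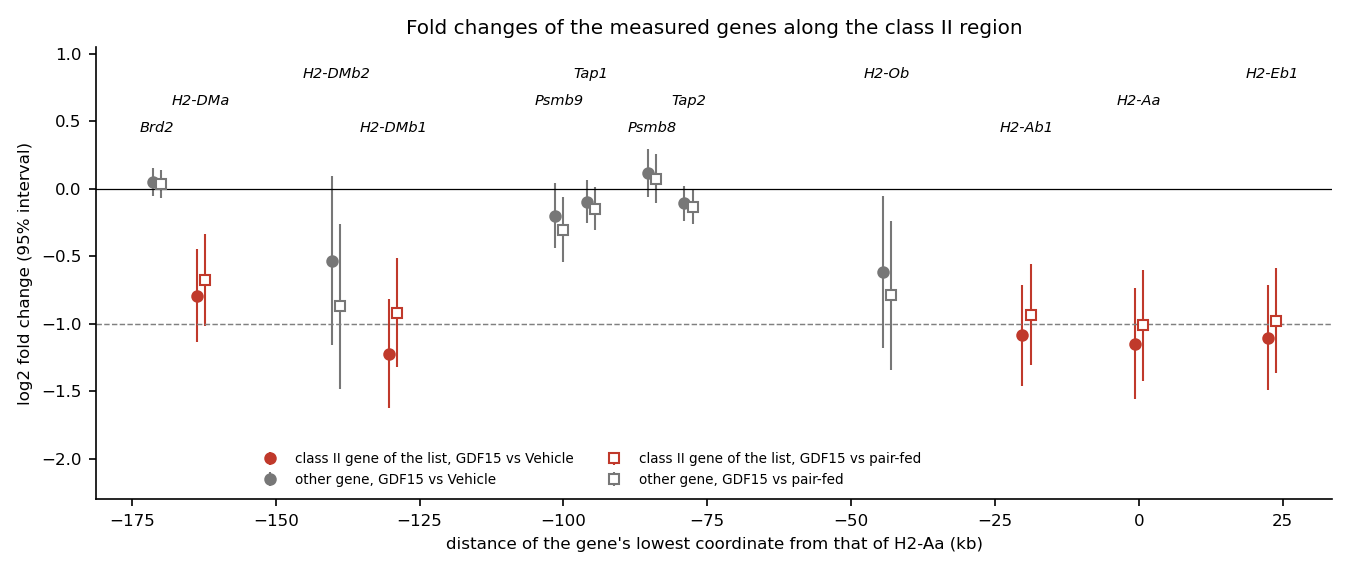
Log2 fold change (vertical axis, with 95% interval) of the 12 measured genes of the class II region against distance from H2-Aa in kb (horizontal axis), for GDF15 against vehicle (circles) and against pair-fed (squares). The 5 genes of the set (red) lie between -1.22 and -0.68, Brd2, Tap1, Tap2 and Psmb8 lie between -0.15 and 0.12, and Psmb9 lies at -0.20 and -0.30.

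The other genes of the route went in both directions on the scale of all genes, which is used until the leukocyte scale is introduced. They were taken as 5 lists by role, 36 genes in all in the table. As background for all lists below, 17.5% of all genes were lower at the adjusted p alone against vehicle and 13.8% against pair-feeding. An unadjusted p under 0.05 in DESeq2 was held by 6282 of 16245 genes against vehicle and 5482 against pair-feeding. Of the 6282, 3256 were lower and 3026 higher, and of the 5482, 2810 were lower and 2672 higher. The share of all genes that were higher at the adjusted p is not reported here. Against vehicle 0 of the 36 were called in DESeq2 and 0 of 33 in edgeR. At the adjusted p alone 8 of the 36 were lower and 5 higher (17 had an unadjusted p under 0.05, 11 lower and 6 higher). Against pair-feeding 1 of 36 was called in DESeq2, H2-Oa, and 0 in edgeR, and at the adjusted p alone 11 were lower and 3 higher. The median log2 fold change of the 36 was -0.15 and -0.13. Between pair-fed and vehicle livers 0 of 36 were called in either tool, and 1 had an unadjusted p under 0.05.

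The remaining class II loci were scarce. H2-Oa and H2-Ob encode the H2-O dimer, which restrains H2-DM, mainly in B cells. H2-Oa averaged 6.27 ± 3.31 normalized counts in the vehicle group, 3.48 ± 2.51 in the GDF15 group and 9.89 ± 3.67 in the pair-fed group (SD, n = 6), and its log2 fold change against pair-feeding was -1.51 (SE 0.49, adjusted p = 0.0109). It was left out of the edgeR fit for low counts. H2-Ob averaged 25.6 ± 5.22, 16.8 ± 4.62 and 29.1 ± 11.9, and its log2 fold change against pair-feeding was -0.79 (adjusted p = 0.0229). Of the 4 loci measured, 0 passed the adjusted p in DESeq2 against vehicle (1 had an unadjusted p under 0.05, and edgeR called 0 of the 2 it kept), and 3 passed against pair-feeding.

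Among the endosomal proteases and processing genes, 3 of 8 were lower and 2 of 8 higher at the adjusted p in both comparisons, and 0 were called in DESeq2 or edgeR (6 had an unadjusted p under 0.05 against vehicle and 5 against pair-feeding). Ctsb and Ctsl, lysosomal cathepsins with wide expression, were the most abundant and had log2 fold changes of -0.15 (adjusted p = 0.0696) and 0.07 (adjusted p = 0.487) against vehicle. Ctsc, the dipeptidyl peptidase that activates granule serine proteases, went the other way from Ctss: it averaged 1219 ± 79.7 in the vehicle group, 1944 ± 329 in the GDF15 group and 1150 ± 108 in the pair-fed group, a log2 fold change of 0.67 (adjusted p = 4.73e-10) against vehicle. Lgmn, an asparagine endopeptidase, averaged 1412 ± 285, 942 ± 155 and 1355 ± 177, a log2 fold change of -0.58 (adjusted p = 0.000158).

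Of the 7 factors on which CIITA docks, 0 were called in either tool (2 had an unadjusted p under 0.05 against vehicle and 3 against pair-feeding), and at the adjusted p 2 were higher against vehicle, and 1 higher and 1 lower against pair-feeding. Rfx5, the RFX subunit that contacts DNA, averaged 320 ± 35.2 in the vehicle group, 301 ± 46.1 in the GDF15 group and 321 ± 27.3 in the pair-fed group, a log2 fold change of -0.09 (95% interval -0.29 to 0.11, adjusted p = 0.523). Nfyb and Nfyc, subunits of NF-Y and the most abundant of the 7, had log2 fold changes of 0.27 (adjusted p = 0.0144) and 0.19 (adjusted p = 0.0062) against vehicle.

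Interferon-gamma is the main inducer of Ciita outside professional antigen-presenting cells. Its own transcript, Ifng, was close to the limit of detection, at a mean of 0.477, 1.83 and 0.962 normalized counts in vehicle, GDF15-treated and pair-fed livers, so no difference was detectable at this depth. Of the 9 genes of this route (8 kept by edgeR) 0 were called in either tool against vehicle (4 had an unadjusted p under 0.05). At the adjusted p in DESeq2, 3 were lower: Ifngr1 (-0.36, adjusted p = 0.00507), Ifngr2 (-0.64, adjusted p = 3.51e-05) and Irf8 (-0.52, adjusted p = 0.00318). Jak1, a kinase bound to the receptor and the most abundant of the 9, stood at 0.02 (adjusted p = 0.809).

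Of 8 surface partners, 0 were called in either tool against vehicle (4 had an unadjusted p under 0.05), 2 were lower and 1 was higher at the adjusted p. The higher one was Cd4, with few counts, at 8.41 ± 3.18 in the vehicle group and 16.7 ± 9.01 in the GDF15 group (SD, n = 6). Its log2 fold change was 0.97 (adjusted p = 0.0268 in DESeq2) against vehicle and 0.47 (adjusted p = 0.320) against pair-feeding. Marchf8, a membrane ubiquitin ligase and the most abundant of the 8, stood at -0.17 (adjusted p = 0.00922) against vehicle, and Cd86, a costimulatory ligand of T cells, at -0.32 (adjusted p = 0.254). MHC class I genes were taken as a comparison, since they present peptides on nearly every cell. Of 9, 0 were called in either tool (2 had an unadjusted p under 0.05 against vehicle and 4 against pair-feeding), and 1 was lower and 1 higher at the adjusted p against vehicle. H2-K1, a classical class I heavy chain, averaged 33679.8 ± 2074 normalized counts in the vehicle group and 35697 ± 2473 in the GDF15 group, a log2 fold change of 0.08 (adjusted p = 0.257), though class I heavy chains share sequence and the split of reads between them is uncertain. B2m, the light chain of class I, stood at -0.04 (adjusted p = 0.641).

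**Figure D4:**
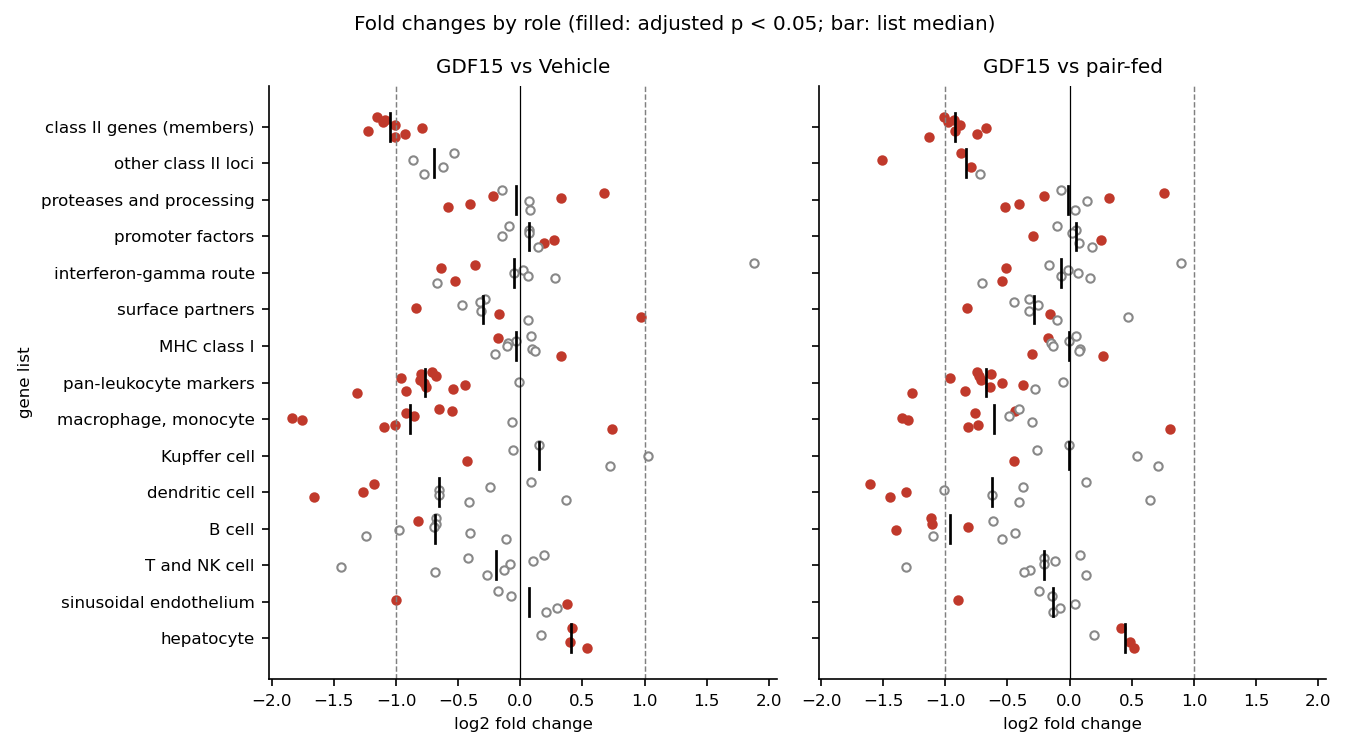
Log2 fold change (horizontal axis) of each gene by list (vertical axis) for GDF15 against vehicle (left) and pair-fed (right), with filled points at an adjusted p under 0.05, open points for the others and a bar at each list's median. The class II genes lie at a median of -1.05 and -0.93, the pan-leukocyte markers at -0.77 and -0.68, and MHC class I genes at -0.04 and -0.00.

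Markers of the cells that express class II moved with the set in part, and their part in the result was not tested. The scaling on pan-leukocyte markers that follows raises the fold changes of genes in general. It cannot tell fewer cells from less RNA per cell. Of 12 pan-leukocyte markers, 11 were lower at the adjusted p against vehicle and 10 against pair-feeding, with 1 called in each (Cytip), and their median log2 fold change was -0.77 and -0.68. Over all genes 17.5% and 13.8% were lower at the adjusted p alone, and 5.37% and 2.75% were called lower, which is the background for each marker list. Ptprc, which encodes CD45, averaged 229 ± 67.7 in the vehicle group, 140 ± 41.3 in the GDF15 group and 235 ± 51.7 in the pair-fed group. Lcp1, the most abundant of the list, stood at -0.01 (adjusted p = 0.938) and Laptm5 at -0.81 (adjusted p = 2.35e-05). The summed level of the 12 ran from 3246 to 4695 in the vehicle group, from 2613 to 3526 in the GDF15 group and from 3331 to 4370 in the pair-fed group.

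Macrophage and monocyte markers were lower in part. Of 10, 4 were called lower against vehicle: Lyz2 (-1.01), Ccr2 (-1.83), Cx3cr1 (-1.76) and Fcgr1 (-1.10); 2 of these, Ccr2 and Cx3cr1, were called lower against pair-feeding. Lyz2 was no longer called without any of vehicle mice 1, 2 and 4 and GDF15 mice 4, 5 and 6, nor Fcgr1 without GDF15 mouse 6. Csf1r stood at -0.55 (adjusted p = 0.00827). The summed level of the 10 ran from 3606 to 5900 in the vehicle group, from 2675 to 4080 in the GDF15 group and from 2801 to 4693 in the pair-fed group. Of 5 markers of resident Kupffer cells, 0 were called in either tool (2 had an unadjusted p under 0.05 against vehicle and 1 against pair-feeding), and Clec4f, a lectin found on Kupffer cells, stood at 0.15 (adjusted p = 0.55) and Vsig4 at -0.06 (adjusted p = 0.891) against vehicle, while Cd5l stood at -0.43 (adjusted p = 0.0496). Their summed level ran from 2273 to 4281, from 1922 to 3655 and from 2450 to 3935.

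Of 9 dendritic cell markers, 3 were called lower in both comparisons: Itgax (-1.66 and -1.44), Flt3 (-1.17 and -1.60) and Ccr7 (-1.26 and -1.31), and Flt3 was not called against vehicle without vehicle mouse 1 (adjusted p = 0.0671 in DESeq2) or GDF15 mouse 6 (adjusted p = 0.0507). Zbtb46, a transcription factor of classical dendritic cells, stood at 0.08 (adjusted p = 0.696), and the summed level of the 9 ran from 269 to 541 in the vehicle group, from 214 to 320 in the GDF15 group and from 341 to 487 in the pair-fed group. Of 8 B cell markers (7 kept by edgeR), 0 were called against vehicle in either tool (6 had an unadjusted p under 0.05). Against pair-feeding 3 were called, among them Cd79a (-1.10) and Pax5 (-1.39), both at means of 31.1 normalized counts or less. Cd79a was under 2-fold without GDF15 mouse 4 or pair-fed mouse 4. Of 8 T and NK cell markers 0 were called in DESeq2 or passed its adjusted p (1 had an unadjusted p under 0.05). edgeR kept only 3 of the 8 and called 0. Cd8b1 and Ncr1 were at or under 3 counts in most GDF15-treated livers. The summed B cell level ran from 137 to 257 in the vehicle group, from 69.4 to 165 in the GDF15 group and from 178 to 348 in the pair-fed group, and that of T and NK cells from 48.8 to 118, from 33.1 to 94.5 and from 59.4 to 108. No marker in any of these lists was at 0 in all livers of a group. Of 6 sinusoidal endothelium markers, 0 were called in DESeq2 against vehicle and 1, Lyve1, in edgeR (2 of the 6 had an unadjusted p under 0.05). Against vehicle 3 of the 6 were negative and 3 positive, with a median of 0.07, and at the adjusted p 1 was lower and 1 higher. Lyve1 stood at -0.997 (adjusted p = 1.46e-08 in DESeq2), Stab1 at -0.07 and Stab2 at -0.18. The summed level of the 6 ran from 3449 to 4719, from 2692 to 4871 and from 3891 to 4951. Of 4 hepatocyte markers 3 were higher at the adjusted p, among them Alb at 0.42 (adjusted p = 0.00107), and 0 were called in either tool (3 had an unadjusted p under 0.05).

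The class II genes were then expressed relative to the 12 pan-leukocyte markers, by taking each library's size factor from those markers. This leukocyte factor, divided by the factor from all genes, ran from 0.893 to 1.58 in vehicle livers, from 0.536 to 0.963 in GDF15-treated livers and from 0.972 to 1.37 in pair-fed livers. The scaling moved the median log2 fold change of all genes to 0.73 against vehicle and 0.70 against pair-feeding, so every value below is relative to leukocyte transcripts and not to liver RNA. On this scale 0 of 8 class II genes were called in DESeq2 in either comparison, beside 1.15% of 15928 genes called lower against vehicle and 0.584% against pair-feeding. At the adjusted p alone 5 of 8 were lower against vehicle (background 2.12%; 5 at an unadjusted p under 0.05) and 1 of 8 against pair-feeding (background 1.12%; 3 at an unadjusted p under 0.05). edgeR was not run on this scale.

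On the leukocyte scale H2-Aa stood at -0.40 (adjusted p = 0.00545) against vehicle and -0.32 (adjusted p = 0.0289) against pair-feeding. H2-Ab1 at -0.35 (adjusted p = 0.00867), H2-Eb1 at -0.37 (adjusted p = 0.0107), Cd74 at -0.27 (adjusted p = 0.0385) and H2-DMb1 at -0.51 (adjusted p = 0.00647) were lower against vehicle, and did not pass against pair-feeding. H2-DMa at -0.07 (adjusted p = 0.74) and Ctss at -0.19 (adjusted p = 0.184) did not pass against either group. Ciita stood at -0.25 (adjusted p = 0.332) against vehicle and -0.43 (adjusted p = 0.0729) against pair-feeding. With the macrophage and Kupffer cell markers in place of the pan-leukocyte list, 0 of 8 were called and 6 of 8 were lower at the adjusted p in each comparison, and the median of the 8 was -0.52 and -0.55, where the median of all genes was 0.53 and 0.41. On that scale the background was 1.67% called lower and 3.37% lower at the adjusted p alone against vehicle, and 0.701% and 2.13% against pair-feeding. Of the 8 pathway genes that were lower at the adjusted p against vehicle on the scale of all genes, 7 had a positive value on the leukocyte scale, among them Lgmn (0.16), Ifngr2 (0.08) and Irf8 (0.24), and Cd83 stayed negative (-0.13). Of the 11 that were lower against pair-feeding, 7 had a positive value and H2-Oa (-0.88), H2-DMb2 (-0.20), Cd83 (-0.16) and H2-Ob (-0.11) stayed negative. H2-K1 (0.80) and B2m (0.68) stood close to the shifted median of all genes against vehicle.

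The spread of the 8 genes between mice of 1 group was also smaller on the leukocyte scale. The SD of the log2 level of the 8 genes had a median of 0.385 in vehicle, 0.424 in GDF15-treated and 0.299 in pair-fed livers on the scale of all genes, and of 0.167, 0.198 and 0.148 on the leukocyte scale, and it was smaller for 8 of 8 genes in each group. The share of all genes with a smaller SD on this scale is not reported here, so the count describes the 8 genes only. The SD moved little for Ciita in GDF15-treated livers (0.532 to 0.516) and for H2-DMb1 in pair-fed livers (0.219 to 0.205). In the plot of H2-Aa against the leukocyte level, GDF15 mouse 1 had the highest leukocyte level of its group (0.963) and the highest H2-Aa (874), close to vehicle mice 3 and 6. GDF15 mouse 6 had the lowest of both (0.536 and 358).

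**Figure D5:**
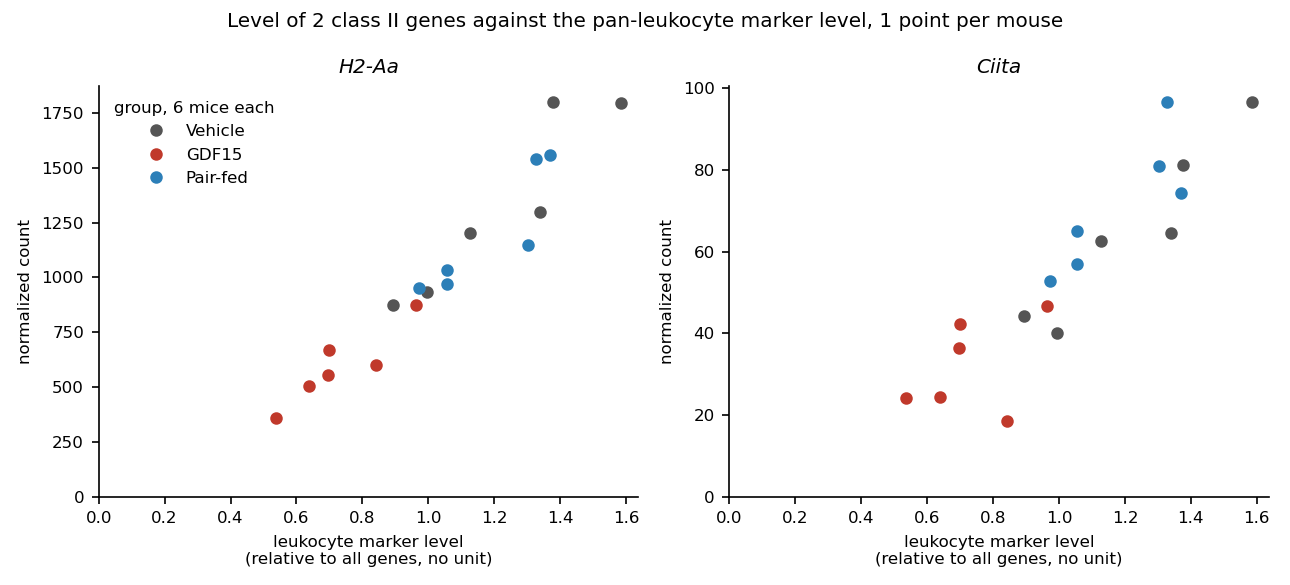
Normalized counts of H2-Aa and Ciita (vertical axes, from 0) against the pan-leukocyte marker level (horizontal axes, ratio of size factors, no unit) in each mouse, coloured by group. Over the 18 livers both genes tend to be higher where the leukocyte level is higher. Within the GDF15 group Ciita departs from this, with 18.4 in mouse 3 (level 0.842) and 42.3 in mouse 2 (level 0.699). The 6 GDF15-treated livers lie at 0.536 to 0.963 on the horizontal axis.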

How the data were processed

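Liver RNA was extracted with TRIzol and RNeasy and made into strand-specific libraries. The authors trimmed reads with Trim Galore and quantified transcripts with Salmon (mm10 named in the processing notes; versions not given in the sources used here), and deposited 1 table of estimated counts per gene symbol, given as whole numbers and not scaled for depth. The lowest row total was 5. Groups and replicate numbers came from the sample titles. All 18 libraries were fitted together in DESeq2 1.42.0 (R 4.3.3; Wald test, Benjamini-Hochberg adjustment over all genes), with the thresholds of the study's liver analysis, an adjusted p under 0.05 and a log2 fold change beyond 1. edgeR 4.0.16 (quasi-likelihood, TMM, 12992 genes after its filter) was the alternative. The labels do not state more about the replicates than separate titles, so p-values measure the spread between these livers. The steps were tested on simulated counts. All members were named; pathway genes were named if called, and otherwise the 2 most abundant per list, with further examples chosen after their values were seen; of marker lists the 3 most abundant and those called. The members and lists were chosen with earlier results of these data known. H2-Ea, Ifi30 and Xcr1 were not analysed here, and some genes of the lists are counted but not reported here by name.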

Additional observations from a re-analysis of the deposited data

Results flagged for a closer look

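In 48 groups of 6 livers (the class II genes and the summed marker lists in each group), 3 held a liver that stood apart from the other 5 by Dixon's criterion at 95%, where chance gives about 2.4. All 3 were in the pair-fed group. For H2-DMb1, pair-fed mouse 1 stood at 175 normalized counts and the other 5 between 114 and 134, a gap of 0.667 of the range. For the summed B cell markers the gap was 0.863 of the range, with a highest value of 348 beside a median of 194. For the summed T and NK cell markers it was 0.686, with a highest value of 108 beside a median of 72.7.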

How the results depend on the processing

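Fits with edgeR, with TMM library sizes, with a filter of 10 counts in 6 samples, without independent filtering and with only the 12 samples compared each called the same 6 of 8 genes against vehicle and the same 2 against pair-feeding. In edgeR, 629 of 12992 genes were called lower against vehicle and 323 against pair-feeding. For the fits with other settings or fewer libraries, the share of all genes called is not reported here, so their counts describe the 8 genes only. With replicates 1 to 3 only, 2 were called against vehicle and 1 against pair-feeding, and H2-DMa (-0.51, adjusted p = 0.0717 in DESeq2) did not pass against pair-feeding. With replicates 4 to 6 only, 6 and 4 were called. Without the fold threshold, 8 were called in each comparison, 5 and 1 on the leukocyte scale, and 13 and 14 of the 36 pathway genes. With both thresholds, edgeR called 0 of the 33 pathway genes it kept in either comparison, and 13 and 13 passed its adjusted p alone. Leaving out 1 library gave 2 to 7 genes against vehicle, 1 to 5 against pair-feeding, 0 to 0 between pair-fed and vehicle livers, and 0 to 0 on the leukocyte scale. On the scale of all genes, no fold change of the 8 genes reversed in these fits. The same range is not reported here for the leukocyte scale, where H2-DMa stood at -0.01 against pair-feeding. Whether the replicate numbers pair the samples is not stated in the labels, and 6 pairs are too few to settle it. Deviations of same-numbered livers correlated at over 0.1 in 2, 4 and 3 of 6 pairs (vehicle with GDF15, vehicle with pair-fed, GDF15 with pair-fed). The mean correlation was -0.03, 0.20 and 0.03 for equal numbers, and 0.01, -0.04 and -0.01 for unequal ones. Of 6 livers, 1, 2 and 2 matched their own number best. With the replicate block, 6 genes were called against vehicle, 3 against pair-feeding (H2-Eb1 added) and 0 between pair-fed and vehicle livers. Counts for the rarest genes, H2-Oa and Ifng, limit what could be detected.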

Other observations

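Within 2 of the groups, livers with replicate numbers 1 to 3 stood above those numbered 4 to 6 for most class II genes, which was seen after the values were known and was not tested. In GDF15-treated livers the 3 lower-numbered mice were all above the 3 higher-numbered ones for 7 of 8 genes, Ciita excepted. In pair-fed livers this held for 7 of 8, H2-DMb1 excepted, and in vehicle livers for 0 of 8. The leukocyte level ran the same way, from 0.699 to 0.963 against 0.536 to 0.696 with GDF15 and from 1.304 to 1.37 against 0.972 to 1.06 with pair-feeding. H2-Aa averaged 716 ± 141 and 472 ± 102 in the 2 sets of GDF15-treated livers, and 1415 ± 233 and 986 ± 44.1 in the 2 sets of pair-fed livers (SD, n = 3). Total counts were 21050932 to 25001486 and 16508864 to 19108435 in the GDF15 sets, and 17180057 to 17926397 and 25047723 to 35301853 in the pair-fed sets. The labels do not say what the numbers mark.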
